A study of Mus musculus with 192 samples.

Results

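The mitochondrial ribosome genes of the mouse were taken as all protein-coding genes of the GENCODE vM1 annotation (mm9 build) whose symbol begins with Mrpl or Mrps followed by a digit. The rule found 77 of the 22208 protein-coding symbols on the autosomes and X, of which 47 were Mrpl genes, named for the large subunit, and 30 were Mrps genes, named for the small subunit. Pi-ATAC, which joins index sorting of antibody-stained cells with transposase mapping of open chromatin, was run here on 4T1 cells mixed with splenocytes. The 4T1 group is a mouse breast cancer cell line, sorted by staining for EpCAM, an epithelial surface protein. The splenocyte group was freshly isolated from the spleen of a mouse carrying the MMTV-PyMT transgene, in which the MMTV promoter drives a viral oncogene in mammary epithelium, and which had no tumour at the time; these cells were sorted by CD45, a leukocyte surface protein. No treatment separated the groups, and both went through the same fixation, staining and transposition. Sample titles gave 96 cells in each group, and source names gave 95 and 97, because 1 cell titled as 4T1 carried the source name of splenocytes.

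All results rest on 1 deposited list of 50000 windows of 500 bp, centred on peak summits of cells read as pooled over both groups. A window in the list therefore marks open chromatin in the pool, with no level, no cell group and no replicate, and no test between conditions could be made. Intervals beside percentages are exact Clopper-Pearson 95% intervals over genes or windows, which share 1 list, and cover counting error only. Of the genes behind the sort markers, Epcam had 2 windows at its promoter and 4 in its locus, and Ptprc, which encodes CD45, had 0 at its promoter and 3 in its locus.

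Mitochondria carry their own ribosome, which translates the few respiratory chain subunits that mitochondrial DNA encodes. Its ribosomal RNA is made inside the organelle, but all of its proteins are encoded by nuclear genes, made in the cytosol and imported. Some of these proteins have counterparts in bacterial ribosomes and others exist only in mitochondria, and the genes are commonly described as housekeeping genes with CpG-rich promoters.

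Short stretches of sequence at the starts of these genes are shown first, because they carry the features that later set the windows beside those of other genes. In the lines that follow, 28 bases of mm9 sequence are printed 5′ to 3′ on the strand of the gene, and capitals mark a word known from the binding sites of YY1, a zinc-finger factor. The word searched was AAGATGGCG or its reverse complement, and, inside promoter windows, it lay within 100 bp of an annotated start at these 8 places, of which that at Mrpl46 is also in the promoter window of Mrps11.
Mrpl38 (chr11:116000077-116000104, minus strand): acctgggggaAAGATGGCGgcgccctgg
Mrps24 (chr11:5607651-5607678, minus strand): gcgccggcccAAGATGGCGtggtccgcg
Mrpl42 (chr10:94964539-94964566, minus strand): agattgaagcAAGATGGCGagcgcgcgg
Mrps10 (chr17:47505844-47505871, plus strand): cagggcaccAAGATGGCGgcgcgcgcag
Mrpl37 (chr4:106739428-106739455, minus strand): tgcacgggcaAAGATGGCGgcgtccagg
Mrpl36 (chr13:73468417-73468444, plus strand): gtgaccttaCGCCATCTTtcttcctggc
Mrpl46 (chr7:85927900-85927927, minus strand): ggaagacagaAAGATGGCGgcgcccgta
Mrpl35 (chr6:71773738-71773765, minus strand): ggcaggctgcAAGATGGCGgcttccatc

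At 7 of the 8 the word ran in the sense of the gene, and in Mrpl36 it was reversed. The ATG inside the word was an annotated translation start in 5 of those 7 (Mrpl38, Mrps24, Mrps10, Mrpl46 and Mrpl35), so the same letters were part of the start of the coding sequence there. In Mrpl42 and Mrpl37 the annotation placed no translation start on that ATG. The centres of the words lay from -27 to 53 bp of the nearest annotated start, negative being upstream.

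A second set of starts held CCGGAAGT or its reverse complement, the core word of ETS factors, in capitals below for the 5 members where, of the words inside promoter windows, it lay nearest to a start.
Mrpl33 (chr5:31916311-31916338, plus strand): cgcgcatgccCCGGAAGTagtcgttgag
Mrps26 (chr2:130389468-130389495, plus strand): ctccgcggccACTTCCGGgccgggcgca
Mrpl52 (chr14:55045737-55045764, plus strand): ggccacgcccACTTCCGGttcccttgct
Mrps22 (chr9:98502092-98502119, minus strand): acctctcgagCCGGAAGTtgctctatcg
Mrpl3 (chr9:104955569-104955596, plus strand): gagaaacggaCCGGAAGTggcccggctg

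The centre of the word lay at -4 bp of the nearest start in Mrpl33, 4 bp in Mrps26, 5 bp in Mrpl52, -8 bp in Mrps22 and 14 bp in Mrpl3. Both orientations occurred among these 5. A further set held the nearly palindromic word of NRF1, nuclear respiratory factor 1, a regulator known for genes of mitochondrial function, which is GCGC, any base, then TGCGC, on either strand. It is shown for the 4 members where, again inside promoter windows, it lay nearest to a start.
Mrps9 (chr1:42908064-42908091, plus strand): gggaggtctGCGCCTGCGCagtctccag
Mrps33 (chr6:39760868-39760895, minus strand): tccggggacGCGCGTGCGCgaggtcagg
Mrpl9 (chr3:94247221-94247248, plus strand): ggcgcagctGCGCATGCGCggggtcctt
Mrps26 (chr2:130389482-130389509, plus strand): ccgggccggGCGCAGGCGCaggcgctgg

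The word was centred at 0 bp of a start in Mrps9, 2 bp in Mrps33, -5 bp in Mrpl9 and 18 bp in Mrps26. Mrps26, which encodes a small subunit protein with no bacterial counterpart, thus held the ETS and the NRF1 word side by side, in stretches that overlap as printed.

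Of the 77 genes, 66 (85.7%, interval 75.9 to 92.6) had at least 1 promoter window, that is, a window sharing 1 bp or more with the sequence up to 1 kb either side of an annotated transcript start. Over all protein-coding genes this share was 48.3%. Among genes with CpG-rich starts, where the observed to expected CpG ratio in the 500 bp on either side of the outermost start was at least 0.6, it was 77.3%. Of the members, 67 (87.0%) were CpG-rich by this measure against 45.7% of all genes, and 58 of those 67 (86.6%, interval 76.0 to 93.7) had a promoter window. The share among the CpG-rich members therefore stood closer to that of other CpG-rich genes than to that of all genes, and the interval of the members held the value of the CpG-rich genes. The members also had more annotated starts (median 3) than all genes (median 2), and with the outermost start alone 81.8% of members and 45.0% of all genes had a window.

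**Figure D1:**
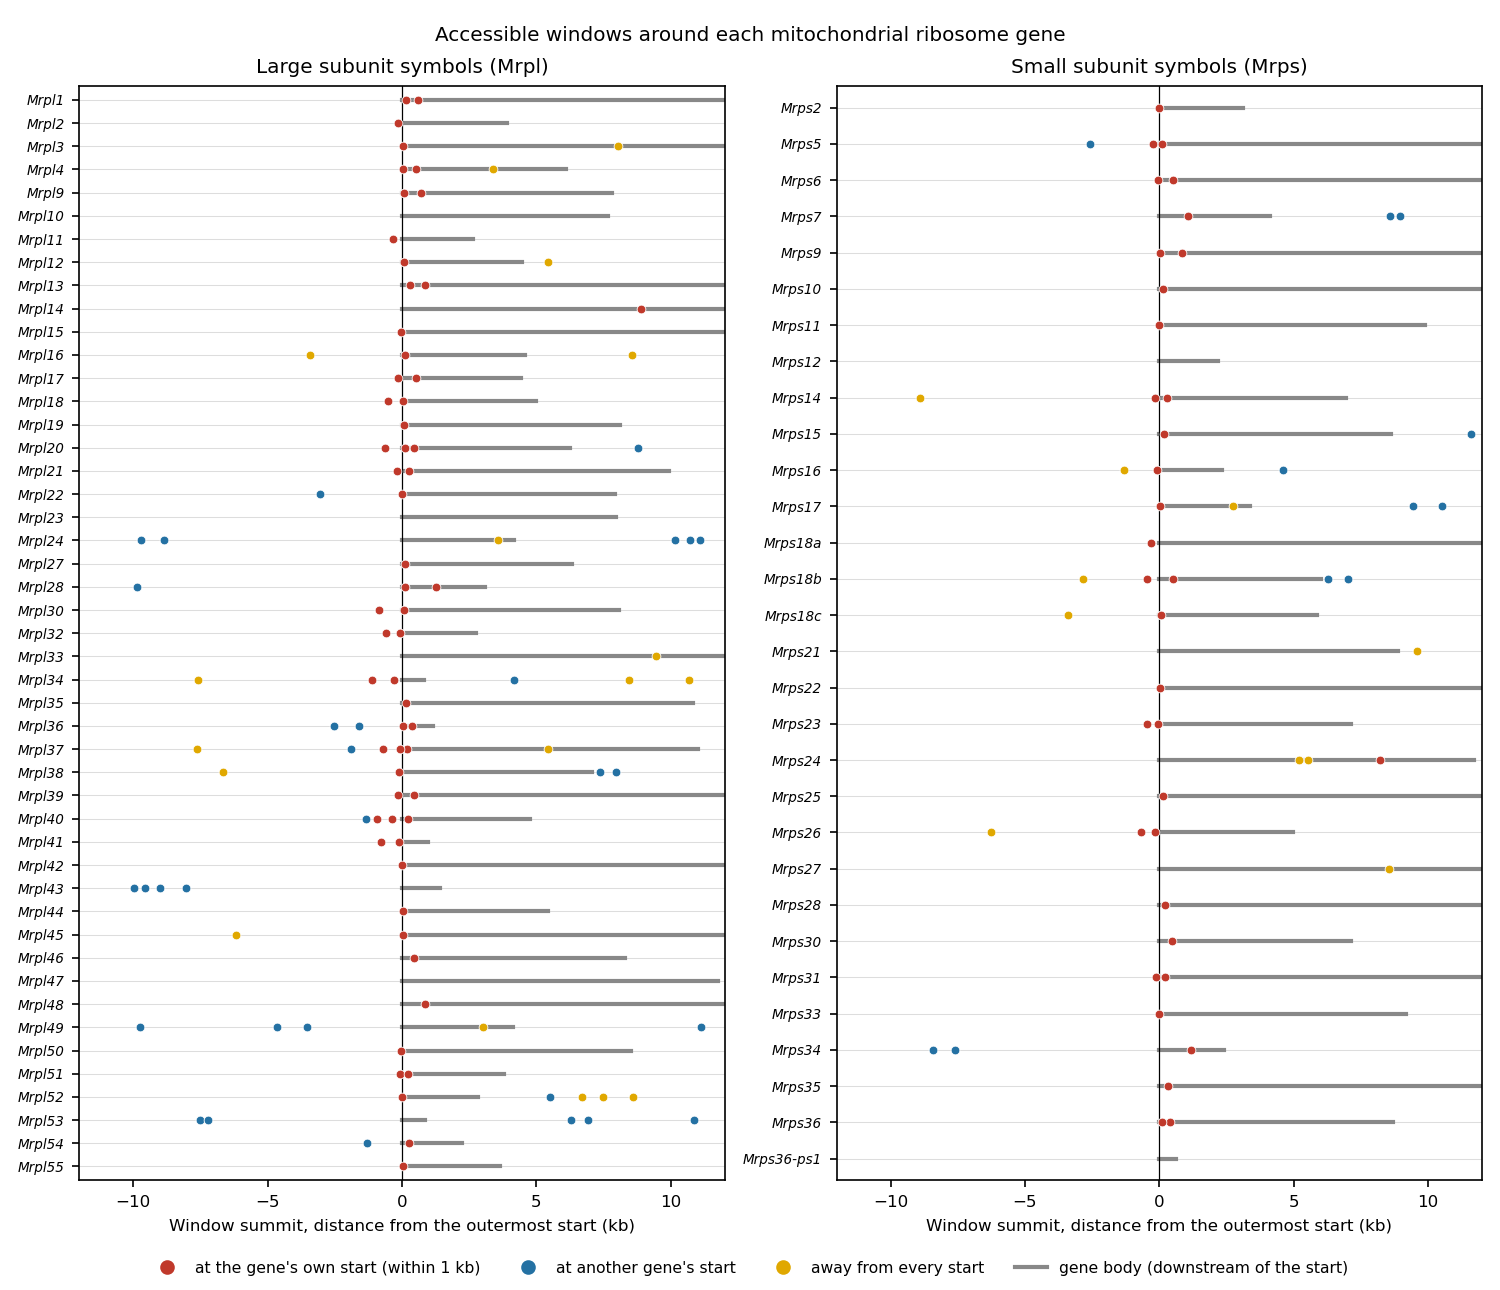
Each row is a gene and each point the summit of a deposited window, placed by its distance in kb from the outermost start of the gene, with positive values downstream. Red points lie at the gene's own starts, blue points at a start of another protein-coding gene and yellow points away from every start; 164 of the 192 windows fall inside the 12 kb drawn on either side, and most rows carry a red point at or close to 0.

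Within the large subunit 40 of 47 genes (85.1%, interval 71.7 to 93.8) had a promoter window, and within the small subunit 26 of 30 (86.7%, interval 69.3 to 96.2). The intervals of both subunits overlapped over nearly their whole width. A single promoter window was found at 21 large subunit genes, namely Mrpl2, Mrpl3, Mrpl11, Mrpl12, Mrpl14, Mrpl15, Mrpl16, Mrpl19, Mrpl22, Mrpl27, Mrpl33, Mrpl35, Mrpl38, Mrpl42, Mrpl44, Mrpl45, Mrpl46, Mrpl50, Mrpl52, Mrpl54 and Mrpl55. The set includes Mrpl12 and Mrpl11, whose products are the counterparts of proteins of the bacterial ribosome stalk and its base, and Mrpl45, whose product lies near the tunnel exit and the inner membrane. Another 15 large subunit genes had 2, namely Mrpl1, Mrpl4, Mrpl9, Mrpl13, Mrpl17, Mrpl18, Mrpl21, Mrpl28, Mrpl30, Mrpl32, Mrpl34, Mrpl36, Mrpl39, Mrpl41 and Mrpl51. The remaining 4 with windows (Mrpl20, Mrpl37, Mrpl40 and Mrpl48) had 3 each, the most of any member.

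Among the small subunit genes, 17 had 1 promoter window, namely Mrps2, Mrps7, Mrps10, Mrps11, Mrps15, Mrps16, Mrps17, Mrps18a, Mrps18c, Mrps22, Mrps24, Mrps25, Mrps28, Mrps30, Mrps33, Mrps34 and Mrps35. Another 9 had 2, namely Mrps5, Mrps6, Mrps9, Mrps14, Mrps18b, Mrps23, Mrps26, Mrps31 and Mrps36, and no small subunit gene had 3. Names do not always give the place of the protein: the products of Mrps18a and Mrps30 sit in the large subunit, and Mrps36 is no longer counted as a ribosomal protein. Each of these 3 genes had a promoter window, 1 at Mrps18a and Mrps30 and 2 at Mrps36. All 3 genes of the Mrps18 family, counterparts of 1 bacterial protein, had a promoter window.

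Genes whose products have a bacterial counterpart had a promoter window in 42 of 48 cases (87.5%, interval 74.7 to 95.3), and those without one in 24 of 29 (82.8%, interval 64.2 to 94.2). The mean number of promoter windows was 1.27 in the first group and 1.28 in the second. Neither the subunit nor the bacterial descent of the protein separated members beyond these intervals.

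Taken over all 77 genes there were 98 promoter windows, a mean of 1.27 per gene against 0.872 over all protein-coding genes and 1.42 over CpG-rich genes. At least 2 promoter windows were found at 28 members (36.4%) against 24.5% of all genes and 41.1% of CpG-rich genes. A promoter window from a call with several summits, the calls that spread over more sequence, occurred at 17 members (22.1%) against 13.1% of all genes and 22.3% of CpG-rich genes. On these 2 measures the members stood closer to CpG-rich genes than to all genes.

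The genes with most promoter windows differed in how these were arranged. Mrpl20, the counterpart of a bacterial large subunit protein, had 1 window (chr4:155176743-155177242) with its summit at -652 bp of its start and a 2-summit call with summits at -22 and 235 bp of the nearest starts. Mrpl37 had a 2-summit call with summits at 145 and -78 bp and a separate window at -692 bp, all of them also within 1 kb of a start of Cyb5rl on the opposite strand. Mrpl40 had a 2-summit call at -16 and -385 bp and a window at -920 bp, all within 1 kb of a start of Hira, which encodes a histone chaperone. At Mrpl48 the windows fell into separate places, with a summit 205 bp from a start beside Rab6 (chr7:107755697-107756196) and a 2-summit call 17240 and 17011 bp into the gene, at 369 and 140 bp from the start of shorter transcripts. With starts of protein-coding transcripts alone, Mrpl48 lost all 3. Mrpl1, first by name among the genes with 2, had a 2-summit call with summits at 136 and -47 bp.

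Summits lay close to the starts. Over the 66 genes the nearest summit was at a median of 2 bp from the nearest start, with quartiles at -58.25 and 82.75 bp and a range from -331 to 1140 bp. In 56 of the 66 (84.8%) it lay within 200 bp, against 79.7% of all genes with a promoter window. It lay downstream of the start in 33 (50.0%) and upstream in 33, while it lay downstream in 37.9% of all genes and 34.5% of CpG-rich genes. No interval was made for this share. In the related gene groups described below it ran from 28.57% (subunits under another symbol) to 54.55% (translation factors). The large subunit genes had a median of -12 bp and the small subunit genes a median of 23 bp.

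**Figure D2:**
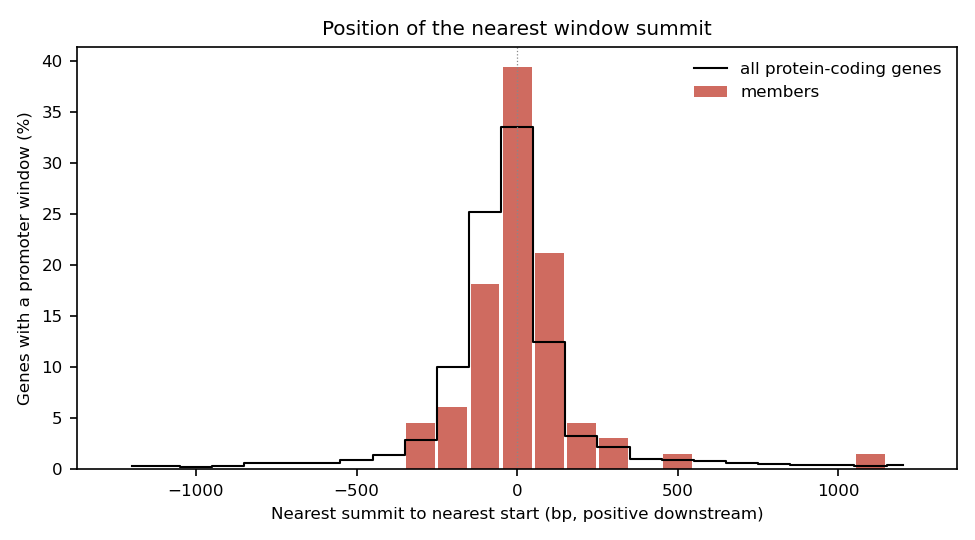
Share of genes with a promoter window (y axis, percent) by the distance in bp of the nearest summit from the nearest annotated start (x axis, bins of 100 bp, positive downstream), as bars for the 66 members and as a line for the 10718 genes of the annotation with a window. The central bin holds 39.4% of the members, and the bins centred at 100 and -100 bp hold 21.2% and 18.2% of them.

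The summits of the 97 different promoter windows fell outside genes in 28 cases, in untranslated regions in 26, in introns in 22, in coding exons in 13 and in exons of non-coding transcripts in 8. The same places, and the overlap given next, were not counted over all promoter windows. Of the 97, 37 (38.1%) were also within 1 kb of a start of another protein-coding gene, and such a window cannot be assigned to 1 gene.

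Most of that overlap follows from the arrangement of the genes. The exceptions were windows of Mrpl34 and Mrpl2, which also lay near starts of Abhd8 and Klc4. Those starts were themselves more than 1 kb from any start of the 2 members. A start of another protein-coding gene lay within 1 kb of a start of 29 members (37.7%), against 13.3% of all protein-coding genes and 21.8% of CpG-rich genes. In 28 of the 29 (96.6%) the neighbour was on the opposite strand, against 90.2% of all genes with a shared promoter. Slc5a3 beside Mrps6 was the exception. The distance between the nearest starts, counted once for each of the 29 members, had a median of 63 bp. It was within 300 bp for 28 of them, with Mrpl41 and Pnpla7 the widest at 935 bp. Members with a shared promoter had a promoter window in 22 of 29 cases (75.9%, interval 56.5 to 89.7), against 78.8% of all genes with a shared promoter. Among these 22, Mrpl14 had its only window 8884 bp into the gene, at another of its starts, and its neighbour Tmem63b had no promoter window. Members without a shared promoter had a promoter window in 44 of 48 cases (91.7%, interval 80.0 to 97.7), against 43.6% of all genes without a shared promoter. Members with a neighbour thus stood near the share of other such genes, and members standing alone stood above theirs. Of the genes standing alone, 81.2% of the members but 41.2% of all were CpG-rich, and a link of this to the windows was not tested.

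In 1 case both genes of a pair were members. Mrpl46, a large subunit gene without a bacterial counterpart, and Mrps11, the counterpart of a bacterial small subunit protein, lie on opposite strands of chromosome 7, with gene bodies that overlap and nearest starts 53 bp apart. Both shared a single window (chr7:85927727-85928226), whose summit was -25 bp from the nearest start of Mrpl46 and -28 bp from that of Mrps11, and neither gene had another window in its locus. The YY1 word printed for Mrpl46 lies inside this window.

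Other neighbours were genes of unrelated or related function. Mrpl18 shared a promoter with Tcp1, a subunit of the cytosolic chaperonin, with starts 16 bp apart and 2 windows. Mrpl32 shared one with Psma2, a proteasome subunit, with starts 217 bp apart and 2 windows. Mrpl27 shared one with Eme1 and Mrps34 with Eme2, which encode related partners of a DNA repair nuclease, and each pair had 1 window. The window of Mrps34 and Eme2 had its edge 890 bp from the nearest start of Mrps34 and also lay near a start of Nme3. The stretch between the starts is printed for 3 pairs with windows, on the strand of the mitochondrial ribosome gene and free of annotated exons, with the words of ETS factors, NRF1, NF-Y (CCAATCA) and SP/KLF factors (GGGCGGG) in capitals on either strand. It is chr4:106739474-106739592 (minus) for Mrpl37 with Cyb5rl, chr13:14705305-14705520 (minus) for Mrpl32 with Psma2, and chr5:101227620-101227645 (plus) for Mrps18c with Helq.
Mrpl37: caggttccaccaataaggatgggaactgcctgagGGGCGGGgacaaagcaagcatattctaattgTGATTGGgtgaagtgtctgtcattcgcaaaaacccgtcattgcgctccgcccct
Mrpl32: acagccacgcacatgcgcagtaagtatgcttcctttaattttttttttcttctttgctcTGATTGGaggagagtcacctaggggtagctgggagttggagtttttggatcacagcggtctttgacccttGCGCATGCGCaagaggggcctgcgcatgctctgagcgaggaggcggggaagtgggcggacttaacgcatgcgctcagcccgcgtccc
Mrps18c: gACTTCCGGcccgggaagcgcgggaa

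The stretch at Mrpl37 held an SP/KLF and an NF-Y word, that at Mrpl32 an NF-Y and an NRF1 word, and the 26 bases at Mrps18c an ETS word.

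**Figure D3:**
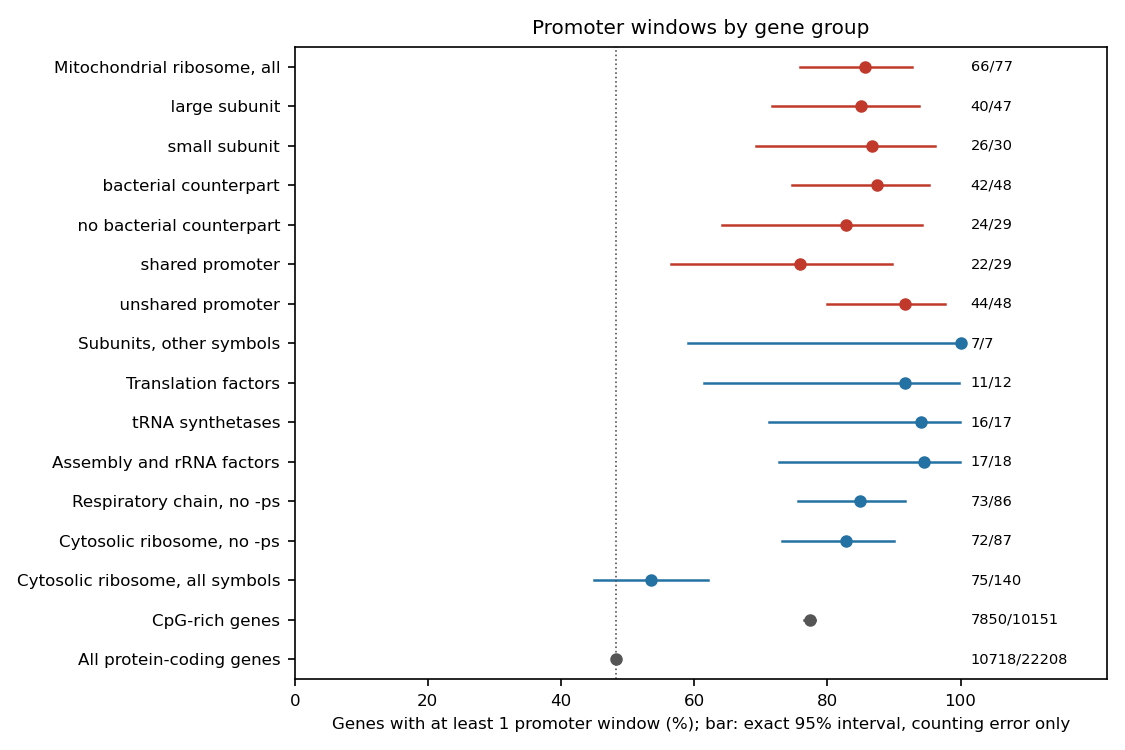
Share of genes with at least 1 promoter window (x axis, percent) for the members and their subsets in red, for other genes of mitochondrial translation, the respiratory chain and the cytosolic ribosome in blue, and for CpG-rich and all protein-coding genes in grey. Points are shares, lines exact 95% intervals and the dotted line the share of all genes; counts stand at the right, and every group of the translation, respiratory chain and ribosome genes lies right of that line, with the cytosolic ribosome by all symbols nearest to it.

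The 11 members without a promoter window were 7 large subunit genes, Mrpl10, Mrpl23, Mrpl24, Mrpl43, Mrpl47, Mrpl49 and Mrpl53, and 4 small subunit genes, Mrps12, Mrps21, Mrps27 and Mrps36-ps1. Mrps36-ps1 carries a pseudogene suffix although the annotation called it protein-coding. Its CpG ratio of 0.283 was the lowest of all members, it had no window in its locus, and the edge of the nearest one was 136387 bp away. Without this symbol 66 of 76 genes (86.8%, interval 77.1 to 93.5) had a promoter window.

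Mrpl47, Mrpl23 and Mrps12, each the counterpart of a bacterial ribosomal protein, likewise had no window in the gene or the 10 kb on either side. The nearest window began 23842 bp from a start of Mrpl47, 34845 bp from Mrpl23 and 22872 bp from Mrps12, whose bacterial counterpart belongs to the decoding centre. Mrpl10, the counterpart of the protein at the base of the stalk, had 1 window 17042 bp away and away from every start, and Mrps27, an RNA-binding subunit, had 4 in its introns, the nearest 8287 bp away.

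In the other 5 the locus held windows that mostly belonged to neighbours. Mrpl24 had 6 in its locus, 5 of them at the starts of Hdgf, Isg20l2 and Rrnad1, and a window near its own 3′ end whose edge was 1208 bp from the start of a shorter transcript. Mrpl53 had 5, all at other starts, the nearest 6024 bp away at Mogs. Mrpl49 had 5, of which 4 were at other starts, and its nearest edge was at 2763 bp. Mrpl43 had 4, all at other starts, the nearest 7796 bp away at Lzts2. Mrps21 had 2, the nearest with an edge 1122 bp from a start.

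The 1 kb limit thus left out Mrps21, Mrpl24 and Mrpl49 by the smallest distances. On the inner side Mrps34 was the outermost member counted, with a window edge 890 bp from its start and a summit at 1140 bp that also lay near Eme2 and Nme3. Mrps30 followed with an edge at 205 bp and Mrpl11 at 82 bp, so that no other member depended on the outer part of the limit.

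Of the 66 members with a promoter window, 58 were CpG-rich and 22 shared a promoter. Of the 11490 protein-coding genes without a promoter window, 2301 were CpG-rich and 625 shared a promoter. Among the 11 members without one, 9 were CpG-rich and 7 shared a promoter with an opposite-strand neighbour. The neighbours were Lrrc46 at Mrpl10 with starts 153 bp apart, Peo1 (the mitochondrial DNA helicase) at Mrpl43 with 116 bp, and Ndufb5 (a subunit of respiratory complex I) at Mrpl47 with 20 bp. They were Fau (a cytosolic ribosomal protein) at Mrpl49 with 135 bp, Sars2 (the mitochondrial seryl-tRNA synthetase) at Mrps12 with 171 bp, C920021L13Rik at Mrps21 with 3 bp and Ptcd2 (a mitochondrial RNA-binding protein) at Mrps27 with 108 bp. With starts this close, the lack of a window at the member nearly fixes the same for the neighbour, and none of the 7 neighbours had one. The stretches between the starts are printed for Mrps12 with Sars2 (chr7:29526840-29527009, minus), Mrps27 with Ptcd2 (chr13:100114634-100114740, plus) and Mrpl49 with Fau (chr19:6057759-6057892, minus), marked as before, to show the letters at starts without a listed window.
Mrps12: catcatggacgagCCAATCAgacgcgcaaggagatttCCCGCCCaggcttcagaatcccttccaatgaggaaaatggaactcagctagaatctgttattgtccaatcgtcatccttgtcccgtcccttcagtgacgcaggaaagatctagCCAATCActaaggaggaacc
Mrps27: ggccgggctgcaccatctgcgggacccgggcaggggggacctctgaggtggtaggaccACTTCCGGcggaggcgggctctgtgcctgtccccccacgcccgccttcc
Mrpl49: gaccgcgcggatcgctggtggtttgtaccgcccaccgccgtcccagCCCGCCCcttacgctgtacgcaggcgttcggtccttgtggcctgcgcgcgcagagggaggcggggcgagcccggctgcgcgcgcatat

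Mrps12 held 2 NF-Y words and 1 SP/KLF word in this stretch, Mrps27 an ETS word and Mrpl49 an SP/KLF word, words that also occurred at members with windows.

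A start without a window in the list is not a start shown to be closed. Peak calls carry consecutive numbers up to 118153, and the list held 44863 of them (38.0%), those with the lowest q-values. Between the windows that flank each of the 11 starts, 1 to 10 numbered calls were missing from the list (median 3), over spans of 6.54 to 421.6 kb. At least 1 call was missing around all 11, and around 91.7% of all genes without a promoter window, and the position of a missing call inside such a span is not known.

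Chromosomes 1 and 10 to 13 kept a smaller share of their call numbers (29.6%) than the remaining chromosomes did (41.3%). On these, 20 of 22 members (90.9%, interval 70.8 to 98.9) had a promoter window, against 49.3% of all genes there. On the other chromosomes 46 of 55 members (83.6%, interval 71.2 to 92.2) had one, against 47.9% of all genes. Of the 11 genes without a window 3 lay on chromosome 3, which held 5 members. The same count was not made over all genes of chromosome 3, so it does not show how the members stand there.

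Around the genes, in the gene body and 10 kb on either side, 73 of 77 members (94.8%) had at least 1 window, against 68.2% of all genes and 90.4% of CpG-rich genes. The median number of windows in a locus was 2 for members, 2 for all genes and 3 for CpG-rich genes. The means were 2.49, 2.43 and 3.51. The members are shorter, with a median gene length of 7.65 kb against 15.5 kb for all genes and 25.2 kb for CpG-rich genes. Per 10 kb of locus the medians were 0.717, 0.316 and 0.489 windows. Respiratory chain genes had a median of 0.873, and cytosolic ribosomal protein genes without a pseudogene suffix 1.29, both above the members. Of the 192 windows in member loci, 98 were at the member's own starts, 46 at a start of another gene and 48 away from every protein-coding start.

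Windows away from every start were found in the loci of 33 members (42.9%) against 44.4% of all genes and 55.6% of CpG-rich genes. The mean was 0.623 per member, 1.17 over all genes and 1.60 over CpG-rich genes, whose loci are longer. Per 10 kb of summed locus length the values were 0.182, 0.178 and 0.203, so that scaled by length the members were close to all genes. Mrps27 had most of these with 4, at 8537, 40140, 46877 and 67969 bp from its start, all in its introns. Mrpl33, Mrpl34 and Mrpl52 had 3 each. The largest loci by count were those of Mrpl24, Mrpl33, Mrpl34 and Mrpl37 with 6 windows each, followed by Mrpl49, first by name of those with 5. At Mrpl33, a gene of 105038 bp with many transcripts, the only own promoter window was 17117 bp into the gene, 39 bp from the start of a shorter transcript, and its outermost start had none. At Mrpl34, which spans 827 bp, 2 windows were counted at its own start, with summits at -1122 and -290 bp. Both were also within 1 kb of a start of Abhd8. Of the other windows in this locus, 1 was at Dda1 and 3 were away from starts.

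Of the 11 words counted in the promoter windows, that of YY1 was found in 9 of the 97 member windows (9.28%, interval 4.33 to 16.9) against 3.24% of all 17286 promoter windows in the list. The ETS word was in 11 windows (11.3%, interval 5.80 to 19.4) against 6.71%, the NRF1 word in 13 (13.4%, interval 7.33 to 21.8) against 8.16%, and the NF-Y word in 14 (14.4%, interval 8.12 to 23.0) against 9.55%. Overlapping windows share letters, and the word at Mrpl37 lay in 2 of its windows, so the intervals count some sequence more than once. For YY1 the interval lay above the share of all windows, and for ETS, NRF1 and NF-Y it held that share. At 31 of the 66 members with a window at least 1 of the ETS, NRF1 and YY1 words was present, and 7 (Mrpl4, Mrpl21, Mrpl22, Mrps2, Mrps7, Mrps18a and Mrps25) held none of the 11 words. Neither count was made over all genes, so neither shows how the members stand beside other genes.

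The SP/KLF word, found in 42 member windows (43.3%, interval 33.3 to 53.8), stood beside 45.8% of all promoter windows. The E-box CACGTG was in 9.28% of member windows against 12.8%, the AP-1 word TGANTCA in 10.3% against 11.9%, and the TATA word TATAAA in 9.28% against 9.96%. The CRE word TGACGTCA and the ERR word TCAAGGTCA each occurred in 1 member window (1.03%), against 2.82% and 0.683%. The ZNF143 word, ACTAC directly followed by AATTC, was in 0 of 97 against 0.561%, and its interval reached 3.73%. For all of these the interval of the members held the share of all promoter windows, and the SP/KLF word can overlap the GC-rich words of other factors.

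**Figure D4:**
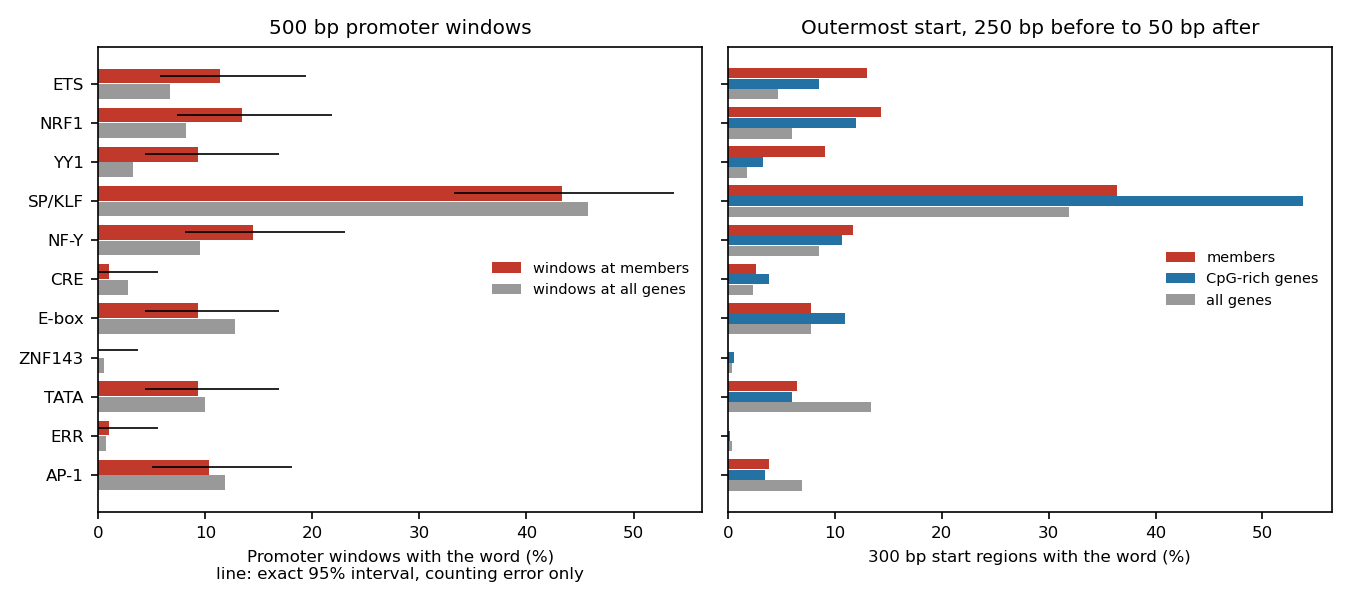
Left, share of 500 bp promoter windows holding each word (x axis, percent) for the 97 windows of the members (red, with exact 95% intervals as lines) and all promoter windows (grey). Right, share of 300 bp start regions holding the word for the 77 members (red), CpG-rich genes (blue) and all genes (grey); the YY1, ETS, NRF1 and NF-Y bars of the members are longer than the others on both sides, and the SP/KLF bar is not the longest on either.

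The same words were counted around the outermost start of every gene, from 250 bp before to 50 bp after it, which does not depend on the windows. The YY1 word was in 9.09% of the members, 3.26% of CpG-rich genes and 1.83% of all genes. The ETS word was in 13.0%, 8.51% and 4.72%, and the NRF1 word in 14.3%, 12.0% and 6.03%. Of these 3 words, the YY1 share of the members stood at the largest ratio to that of CpG-rich genes and the NRF1 share at the smallest. The SP/KLF word was in 36.4% of the members, below the 53.8% of CpG-rich genes, and the NF-Y word in 11.7% against 10.7%. Among the members without a window, 2 held the ETS word in this region (Mrpl43 and Mrps27), 1 the NRF1 word (Mrps21) and 1 the YY1 word (Mrps27).

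Words differed in how close to a start they lay. All 8 YY1 words, 9 of 11 ETS words and 12 of 17 NRF1 matches in member windows had their centre within 100 bp of a start, with medians of 7.5, -4 and -5 bp. For SP/KLF it was 36 of 61 matches, with a median of -32 bp, and for NF-Y 6 of 11, with a median of -51 bp. For AP-1 it was 3 of 10 and for TATA 2 of 11. The same positions were not counted over all promoter windows, and the member windows themselves lay close to starts.

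Most different words stood at Mrpl2, Mrpl37 and Mrpl40, with 4 each. Mrpl2, whose product is the counterpart of a bacterial protein close to the catalytic centre, held the AP-1, E-box, NF-Y and SP/KLF words in a single window (chr17:46782779-46783278), of which 3 lie in the 140 bases chr17:46782977-46783116 (plus), between -201 and -62 bp of the start.
Mrpl2: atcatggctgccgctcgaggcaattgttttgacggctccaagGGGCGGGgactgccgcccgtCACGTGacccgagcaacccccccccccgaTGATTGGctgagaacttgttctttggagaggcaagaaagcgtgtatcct

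Mrpl37 held the E-box, NF-Y, SP/KLF and YY1 words over its 3 windows, and Mrpl40 the E-box, ETS, NRF1 and SP/KLF words over its 3. Mrpl13, with the ETS, SP/KLF and TATA words, Mrpl18, with the ETS, NF-Y and SP/KLF words, and Mrpl20, with the AP-1, E-box and SP/KLF words, followed with 3 each, as did 7 further members by later names. Members with more windows offered more sequence to search.

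The gene groups most like the members had similar shares of promoter windows. Nuclear genes for subunits of the respiratory chain had a promoter window in 73 of 87 cases (83.9%, interval 74.5 to 90.9), with a mean of 1.32 promoter windows, and 34.5% of them shared a start region with another gene. Cytosolic ribosomal protein genes had one in 75 of 140 (53.6%, interval 45.0 to 62.0), but 72 of 87 (82.8%, interval 73.2 to 90.0) once symbols with a pseudogene suffix were left out. The latter had a mean of 1.55 promoter windows, and 18.4% shared a start region. The members, with 85.7%, 1.27 windows and 37.7% shared, were close to the respiratory chain genes in all 3 values, and the intervals of the shares with a window overlapped in every pair but that with all cytosolic symbols.

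Nearly all of the other genes listed as needed for mitochondrial translation had at least 1 promoter window. Subunits known under another symbol had a promoter window in 7 of 7 cases, with most windows in the loci of Dap3 (7), Ict1 (7) and Chchd1 (6). Translation factors had one in 11 of 12, with 4 windows each in the loci of Gfm1, Mtif2, Mtrf1l and Tsfm, and Mtrf1, a release factor, was the exception. Aminoacyl-tRNA synthetases, which charge the mitochondrial tRNAs, had one in 16 of 17, with most windows at Cars2 (7) and Hars2 (6), and Sars2, which shares its start with Mrps12, had none. Assembly and ribosomal RNA factors had one in 17 of 18, with most windows at Mpv17l2 (6), Mrm1 (6) and C1qbp (4), and Eral1, a chaperone of the small subunit ribosomal RNA, had none. With so few genes the intervals were wide, from 59.0 to 100% for the 7 subunits and from 61.5 to 99.8% for the translation factors.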

How the data were processed

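Pi-ATAC had been performed on 192 single mouse cells. According to the methods and processing notes, the authors mapped reads to mm9 with Bowtie2 2.1.0, removed duplicates (Picard 1.79) and mitochondrial reads, and called summits on aggregated cells with MACS2 (version not given in the sources used here). Deposited values, of no other unit, were start and end of each 500 bp window, among the 50000 with lowest q-values, with no score, count or depth. That the list pools both groups was read from peak names.

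Here, windows were counted with Python 3.11.15, pandas 2.3.3 and pysam 0.24.0 against GENCODE vM1, keeping the longest model of a symbol on the autosomes and X. Counting was tested on simulated windows. With 1 list and no replicates, no test was run. Noa1 of the assembly list had no match in the annotation. The members and lists were chosen with earlier results of these data known. Values are given for every member without a promoter window, the 5 with most promoter windows, the 5 with most locus windows, 3 on either side of the 1 kb limit, members sharing a promoter with each other, and 6 with most words (ties by name). For 1 pathway gene the window counts are not reported here. Other genes and the printed sequences were chosen after their values were seen. Alternatives covered distances, starts, flanks, merged windows, summit numbers, chromosomes and shared promoters.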

Additional observations from a re-analysis of the deposited data

How the results depend on the processing

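The share of members with a promoter window stayed inside its 95% interval, and above the share of all genes, with starts extended to 500 bp or 2.5 kb, summits in place of windows, the outermost start alone, and without the thinner chromosomes or shared promoters. It also did so with 3 alternatives chosen after seeing the data: protein-coding transcripts, no -ps symbols and CpG-rich genes alone. It fell by construction with fewer windows, to 22.1% of members with calls of several summits alone and 68.8% with calls of a single summit, against 13.1% and 39.8% of all genes. Windows in the locus averaged 1.36 per member without flanks, 6.45 with 50 kb on either side and 0.623 away from any promoter, against 1.48, 5.41 and 1.17 for all genes. Without flanks and away from promoters the members thus stood below all genes, as counts not scaled by length. In the middle 200 bp of the windows, the words of NRF1 (7.22%), YY1 (4.12%), SP/KLF (20.6%), CRE (0%), TATA (1.03%), ERR (0%) and AP-1 (1.03%) fell below the interval of the full windows. All windows gave 4.70%, 1.30%, 27.4%, 1.58%, 3.40%, 0.203% and 5.13% there. The list gives no depth, level or group, so closed and weakly open starts cannot be told apart. No paired analysis was possible because the groups compared have no columns of their own in the deposited list.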
